A study of Mus musculus with 12 samples.

Results

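Mitochondrial ribosomal protein genes are nuclear genes whose proteins are made in the cytosol, imported into mitochondria and built into the small and large subunits of the mitochondrial ribosome. They were taken as every gene of the deposited table whose mouse symbol is Mrps or Mrpl followed by a number and that is not a pseudogene. That rule gave 77 of 39210 genes, 29 with an Mrps symbol and 48 with an Mrpl symbol, and left out 5 pseudogenes. Mrpl33 was not analysed here. RNA of frozen ventricles from C57BL/6 mice was sequenced in 12 libraries, 3 from each of 4 groups. Males and females in normoxia had breathed 20.9% oxygen for 4 weeks. Males and females in hypoxia had been brought to 7% oxygen in daily steps of 1% over 14 days and then kept there for 2 weeks. The labels give neither age nor which ventricle was sampled. They also leave unsaid whether each library came from its own mouse, so a p-value here reflects the spread between libraries, part of which may be technical.

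The mitochondrial ribosome translates the few mRNAs of mitochondrial DNA, all of which encode subunits of the respiratory chain and of ATP synthase, and it descends from a bacterial ribosome. Some of its proteins have a bacterial counterpart and others exist only in mitochondria. The heart, whose muscle cells are packed with mitochondria, depends on respiration for most of its ATP. By the protein each member encodes, 16 belong to the small subunit and have a bacterial counterpart, 10 are small subunit proteins specific to mitochondria, 29 are large subunit proteins shared with bacteria and 21 are large subunit proteins specific to mitochondria. The last group includes Mrps18a and Mrps30, whose symbols name the other subunit. Mrps36 met the symbol rule, but its protein is now assigned to the oxoglutarate dehydrogenase complex.

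The region around the transcription start of each member was examined for 4 short sequences, because several members moved together in hypoxia and factors that bind these sequences are known to act on nuclear genes for mitochondrial proteins. RefSeq promoters (assembly GRCm38.p6, 250 bases before to 50 after the start) were found for 68 members, and 9 had none in the table. Both strands were searched, and the 70 matches found in these promoters gave 0 pairs of different motifs sharing bases. The NRF1 motif GCGCANGCG occurred in 16 of the 68 (23.5%), against 14.6% of all tested genes with a promoter. The ETS motif CCGGAAG, the core recognised by GABPA, occurred in 25 (36.8%, against 19.1%). The YY1 motif AAGATGGCG occurred in 8 (11.8%, against 3.42%), and the E-box CACGTG in 5 (7.35%, against 11.6%). In the cytosolic ribosomal protein genes these shares were 15.6%, 40.6%, 6.25% and 9.38%, in the same order. A match describes letters in the window and is not a mapped binding site.

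Windows from 170 bases before to 30 after the start are printed for 4 of the 8 members with the smallest p-values in hypoxia, 3 with NRF1 or ETS matches (Mrpl30, Mrps9 and Mrpl3) and Mrpl55 without a match, and for Mrps18a and Mrpl16, which showed almost no difference. Each is given 5′ to 3′ on the strand of the gene, with motif matches in capitals. Mrpl30 (chr1:37890307-37890506, plus strand) has a pair of NRF1 matches, Mrps9 (chr1:42851063-42851262, plus strand) has an NRF1 match, Mrpl3 (chr9:105053098-105053297, plus strand) has an ETS match, Mrpl55 (chr11:59202316-59202515, plus strand) has none, Mrps18a (chr17:46110834-46111033, plus strand) has an ETS and a YY1 match, and Mrpl16 (chr19:11770245-11770444, plus strand) has none. The same windows of Mrps24 and Mrps15, which also had small p-values, hold no match either, and that of Mrpl37 holds only an E-box match in full. In the longer region searched, a YY1 match begins at base 37 after the start in Mrps24. Another begins at base 27 in Mrpl37 and runs past the window. No window is shown for Mrpl15.
Mrpl30: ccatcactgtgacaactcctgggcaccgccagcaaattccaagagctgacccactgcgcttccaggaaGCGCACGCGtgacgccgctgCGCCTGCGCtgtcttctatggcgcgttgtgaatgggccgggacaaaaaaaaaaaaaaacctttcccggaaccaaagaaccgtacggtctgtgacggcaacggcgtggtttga
Mrps9: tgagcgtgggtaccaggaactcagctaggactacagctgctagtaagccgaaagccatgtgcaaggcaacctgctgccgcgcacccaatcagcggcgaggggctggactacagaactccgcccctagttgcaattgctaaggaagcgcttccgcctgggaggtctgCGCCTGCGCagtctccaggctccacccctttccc
Mrpl3: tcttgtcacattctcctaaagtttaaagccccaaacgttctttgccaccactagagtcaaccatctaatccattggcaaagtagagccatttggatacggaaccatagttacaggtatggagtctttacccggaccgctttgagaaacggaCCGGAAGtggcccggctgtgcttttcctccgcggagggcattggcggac
Mrpl55: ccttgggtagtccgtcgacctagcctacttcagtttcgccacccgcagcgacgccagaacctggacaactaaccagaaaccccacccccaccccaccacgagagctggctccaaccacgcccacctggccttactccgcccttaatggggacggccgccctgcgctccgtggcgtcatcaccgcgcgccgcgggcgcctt
Mrps18a: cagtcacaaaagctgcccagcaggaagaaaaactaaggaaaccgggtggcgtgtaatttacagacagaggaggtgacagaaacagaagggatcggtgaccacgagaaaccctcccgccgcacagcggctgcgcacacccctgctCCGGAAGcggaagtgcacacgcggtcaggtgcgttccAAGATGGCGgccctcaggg
Mrpl16: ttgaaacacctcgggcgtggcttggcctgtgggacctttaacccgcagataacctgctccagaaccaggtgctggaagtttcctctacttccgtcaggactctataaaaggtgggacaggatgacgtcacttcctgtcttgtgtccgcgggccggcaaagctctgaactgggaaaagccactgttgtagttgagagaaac
Members with a fall and members without one thus both included windows with and without a match. Among the 45 members with a promoter that fell in the averaged comparison given below, 28.9% held the NRF1 motif and 28.9% the ETS motif. Among the 23 that did not pass the test, these shares were 13.0% and 52.2%.

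Library totals ran from 14915800 to 19397900 estimated counts. All 77 members passed the filter on low counts, with mean counts between 32.7 for Mrps16 and 4296 for Mrpl42, and 3 members (Mrpl52, Mrpl57 and Mrps16) had a mean under 100. The summed level of 10 ventricular muscle markers was 50977 to 66790 TPM over the 12 libraries, with none of the 10 at 0. Some libraries stood apart. Summed atrial markers, of which 7 were in the table, were 2274, 1105 and 507 TPM in male hypoxia libraries 2, 3 and 1, 190 to 1243 TPM in hypoxic females and 64.5 to 233 TPM in the 6 normoxia libraries. Female normoxia library 3 differed from the other libraries of its group by a chi-square per gene of 47.2 and 47.6, against 7.51 between those others. Female hypoxia library 1 differed likewise from the others of its group (39.6 and 41.1, against 9.97 between those others), and male hypoxia library 2 from libraries 1 and 3 (44.5 and 55.2, against 25.96 between those). Counts of calls or medians are given with and without male hypoxia libraries 2 and 3, and also without female normoxia library 3. Female hypoxia library 3, whose 1243 TPM of atrial markers exceeded the 1105 TPM of male hypoxia library 3, was kept in these fits. The effect of leaving out female hypoxia library 1 is given beside the female count, and without it the averaged comparison called 53 members in place of the 52 given below.

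Transcript abundance per length placed Mrps21 and Mrpl42 at the top of the family. Abundance is compared between genes in deposited TPM, an abundance that takes account of transcript length and is scaled within each library. The deposited totals were not equal. Their means were 925409 in normoxic and 907349 in hypoxic males, and 917166 and 914997 in females. The median member had a mean of 41.5 TPM over the 12 libraries, and the lower and upper quartiles were 19.7 and 65.7 TPM. Mrps21, a small subunit protein with a bacterial counterpart, had a mean of 929 TPM, Mrpl42, a mitochondria-specific large subunit protein, 368 TPM, and Mrpl30, a large subunit protein shared with bacteria, 180 TPM. The level of Mrps21 rests on a mean deposited length of only 60.2 bases, the shortest of the family and the only value under 100 bases. At the low end were Mrps16 (0.505 TPM), Mrpl57 (0.555 TPM) and Mrpl11 (2.09 TPM). These 3 low values rest on lengths of 2322, 2627 and 2795 bases, each equal in all 12 libraries and each 250 bases below that of a long transcript in GENCODE vM21. The part of these lengths in the low values was not tested. Summed over the family, abundance in males was 4682 ± 117 TPM in normoxia and 4781 ± 727 TPM in hypoxia (SD, n = 3). In females it was 4737 ± 86.6 TPM in normoxia and 4703 ± 50.1 TPM in hypoxia. The hypoxic males had 4735, 5531 and 4078 TPM, so that their range spanned those of all the other groups.

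On a scale that removes shifts in library composition, the same genes lay lower in hypoxia. In the averaged comparison, the mean of the male and the female effect of hypoxia, 52 of 77 members were lower and 0 higher at an adjusted p under 0.05 (67.5% of members). Over all 13960 genes tested, 12.9% were lower and 15% higher (27.9% in all). The median log2 fold change was -0.31 for the members and -0.01 for all genes, and 75 of 77 members were below 0. At an unadjusted p under 0.05, 62 members were lower and 0 higher, against 2752 lower and 2931 higher of all 13960 tested genes. The changes were small: those members that fell did so by between 0.24 and 0.73 on the log2 scale. In tissue of mixed cells, fewer cells of a type and less RNA per cell cannot be told apart.

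The direction depended on the scale. Mitochondrially encoded transcripts took 27.6 to 29.3% of counts in normoxic males and 15.8 to 23.1% in hypoxic males, and 24.5 to 26.4% against 21.5 to 23.0% in females. In deposited TPM, the group mean of 37 members was lower and that of 40 higher in hypoxic males, with a median log2 ratio of 0.00 for the members and 0.42 for all tested genes. In females 36 were lower and 41 higher, with medians of 0.01 and 0.19. With mitochondrially encoded and haemoglobin genes removed and TPM rescaled, 59 members were lower in males (medians of -0.16 for members and 0.26 for all tested genes) and 49 in females (-0.06 and 0.13). On CPM (counts scaled to library size) without further correction, 64 of 77 members were lower in males and 53 in females, and with those genes removed 71 and 61. On CPM with the trimmed-mean (TMM) scaling of edgeR, used for the tests, 75 were lower in males and 70 in females. On every scale tried, 74 to 76 members lay below the median of all tested genes in males and 67 to 69 in females. A fit on library size alone called 10 members lower and 3 higher, with member and all-gene medians of -0.11 and 0.20. In that fit 4.58% of all tested genes were lower and 29.8% higher. The falls below are therefore relative to the other genes of the heart transcriptome, and CPM below means TMM-scaled CPM.

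**Figure D1:**
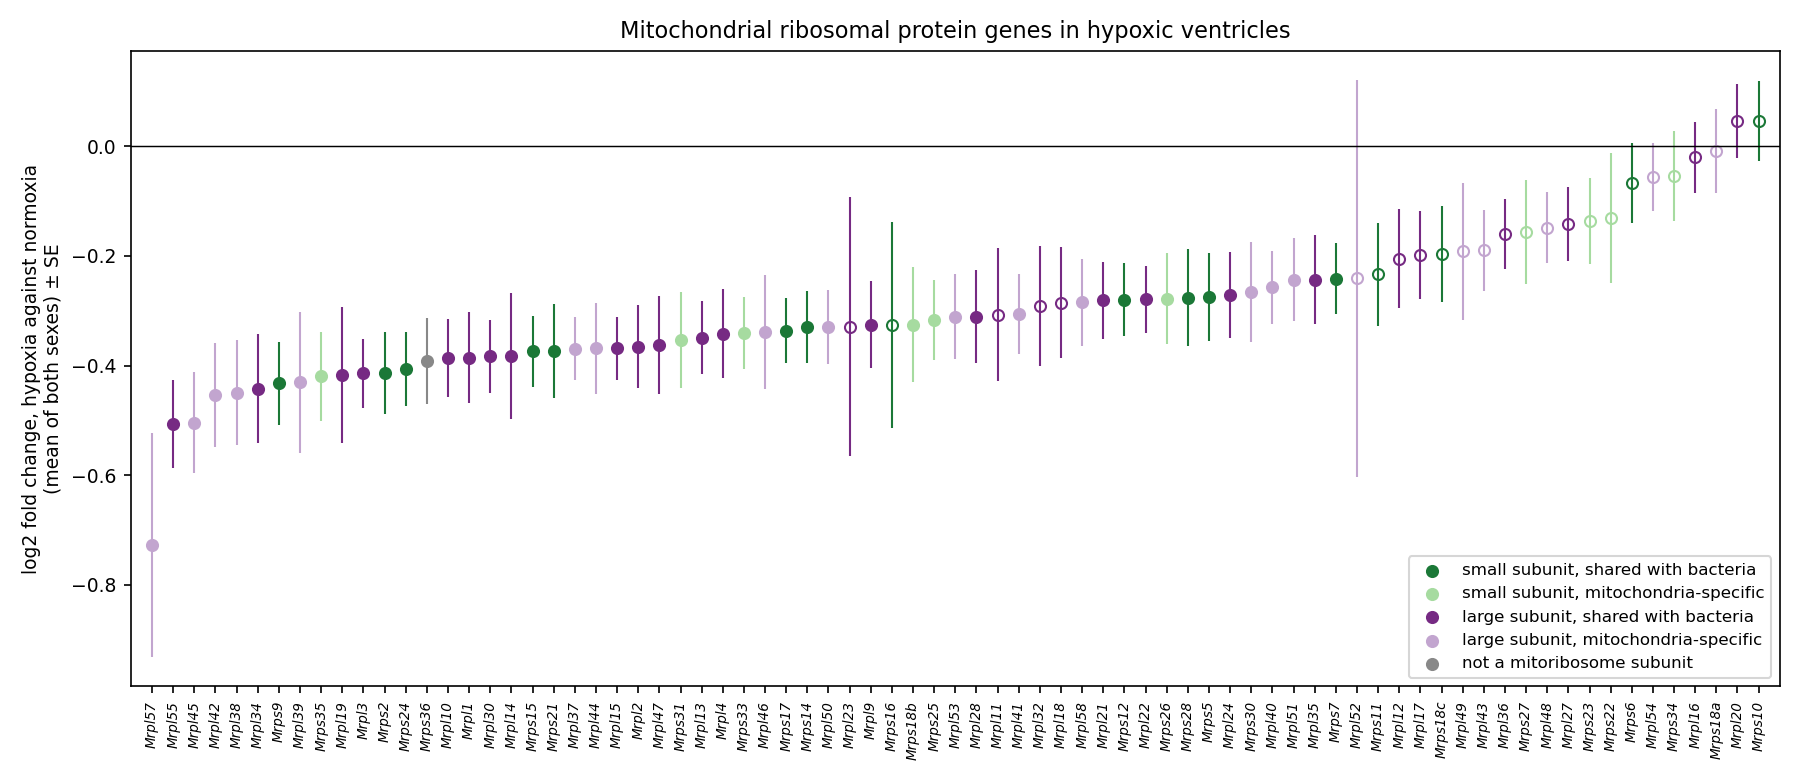
All 77 members ordered by the averaged hypoxia effect (log2 fold change of TMM-scaled counts ± SE, y axis), coloured by ribosomal subunit and bacterial kinship. Filled points passed edgeR's test at an adjusted p under 0.05 and open points did not. The 52 filled points all lie below 0, from Mrpl57 at -0.73, and 2 open points lie above it.

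Falls were spread over both subunits and both kinds of protein. In the small subunit, 11 of 16 members shared with bacteria and 6 of 10 mitochondria-specific members fell, with medians of -0.30 and -0.30 on the log2 scale. In the large subunit, 19 of 29 shared and 15 of 21 mitochondria-specific members fell, with medians of -0.33 and -0.31. Over all tested genes 12.9% were lower in this comparison, and the median was -0.01. Mrps36, the member outside the ribosome, fell by 0.39 (SE 0.08, adjusted p = 0.00471). Without male hypoxia libraries 2 and 3 the medians of these 4 classes ran from -0.26 to -0.23, against -0.02 for all tested genes. Without female normoxia library 3 as well they ran from -0.27 to -0.22, against -0.02 for all tested genes. Mrps36 did not pass in the first of these fits (-0.29) or on library size alone (-0.19), and passed in the second (-0.31).

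Among small subunit members, Mrps9, which has a bacterial counterpart, had 90.3, 81.3 and 89.7 CPM in normoxic males and 61.8, 52.4 and 55.0 in hypoxic males. In females it had 83.6, 71.5 and 72.3 CPM in normoxia and 69.7, 66.2 and 56.9 in hypoxia. The hypoxic libraries were all below the normoxic ones in each sex, and Mrps9 fell by 0.43 (SE 0.08, adjusted p = 0.00243).
Mrps24, the counterpart of a bacterial protein at the entry of the mRNA channel, had 76.9, 65.7 and 74.7 CPM in normoxic and 56.7, 52.6 and 46.2 in hypoxic males, and 58.8, 57.8 and 61.8 against 48.6, 48.3 and 45.2 in females. The groups did not overlap in either sex, and Mrps24 fell by 0.41 (SE 0.07, adjusted p = 0.00195). Mrps15, a conserved protein that binds the small subunit rRNA, had 55.3, 55.2 and 57.8 CPM in normoxic and 46.5, 36.1 and 40.7 in hypoxic males, and 58.0, 57.0 and 58.7 against 49.0, 46.7 and 45.6 in females. It fell by 0.37 (SE 0.07, adjusted p = 0.0024), again with no overlap in either sex. Mrps21, the most abundant member by TPM, had 105 ± 2.36 CPM in normoxic and 80.6 ± 13.1 in hypoxic males, and 98.5 ± 7.46 against 76.4 ± 6.96 in females (SD, n = 3). It fell by 0.37 (SE 0.09, adjusted p = 0.00913), and with the length offset described below its adjusted p was 0.0991.

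Among large subunit members, Mrpl3 had the smallest p-value. Its protein, shared with bacteria, reaches toward the site where peptide bonds form. Mrpl3 had 85.8, 72.8 and 81.1 CPM in normoxic males and 56.8, 53.1 and 55.5 in hypoxic males. In females it had 74.9, 75.3 and 71.4 CPM in normoxia and 65.5, 56.0 and 59.4 in hypoxia. All 3 hypoxic libraries of a sex were below all 3 normoxic ones, and Mrpl3 fell by 0.41 (SE 0.06, adjusted p = 0.00127). With an offset for the deposited transcript lengths its adjusted p was 0.0538.

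Mrpl55, a large subunit protein with a bacterial counterpart, had 81.0, 78.8 and 89.4 CPM in normoxic and 57.5, 52.6 and 43.5 in hypoxic males, and 78.9, 74.8 and 67.5 against 64.4, 55.8 and 57.5 in females. The groups were separate in both sexes, and its fall of 0.51 (a log2 fold change of -0.51, SE 0.08, adjusted p = 0.00162) was the second largest of the family. Mrpl15, a conserved protein, had 67.5, 67.3 and 70.1 CPM in normoxic and 53.0, 52.9 and 46.3 in hypoxic males, and 64.4, 66.3 and 71.9 against 55.2, 55.3 and 53.3 in females. It fell by 0.37 (SE 0.06, adjusted p = 0.00146), and no hypoxic library reached the lowest normoxic one of its sex. Mrpl37, a protein specific to mitochondria, had 90.2, 88.7 and 91.8 CPM in normoxic and 66.7, 66.6 and 58.9 in hypoxic males, and 89.2, 84.6 and 86.0 against 78.4, 72.3 and 68.9 in females. It fell by 0.37 (SE 0.06, adjusted p = 0.00155), without overlap in either sex. Mrpl30, whose promoter holds the pair of NRF1 matches, had 175, 152 and 184 CPM in normoxic and 135, 120 and 126 in hypoxic males, and 162, 157 and 173 against 128, 135 and 125 in females. It fell by 0.38 (SE 0.07, adjusted p = 0.0024).

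The numerically largest fall, that of Mrpl57 (-0.73, SE 0.20, adjusted p = 0.0218), came from low levels. Mrpl57 had 3.21, 3.21 and 3.11 CPM in normoxic and 2.12, 2.72 and 2.09 in hypoxic males, and 2.32, 3.22 and 2.53 against 1.54, 0.767 and 1.72 in females. Its call was lost without male hypoxia library 3 (adjusted p = 0.0525), without female normoxia library 2 (adjusted p = 0.0549) and without male hypoxia libraries 2 and 3 (adjusted p = 0.102). Mrpl42, the second most abundant member by TPM, had 304, 289 and 313 CPM in normoxic and 225, 157 and 196 in hypoxic males, and 296, 292 and 243 against 252, 231 and 211 in females. Hypoxic and normoxic females overlapped, and the fall was 0.45 (a log2 fold change of -0.45, SE 0.10, adjusted p = 0.00583).

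Some members with a mean TPM above the family median showed no detectable difference. Mrps18a had 70.2, 67.8 and 76.9 CPM in normoxic and 68.0, 70.5 and 66.2 in hypoxic males, and 66.2, 67.0 and 84.8 against 81.3, 75 and 70.0 in females. The groups overlapped in both sexes (log2 fold change -0.01, SE 0.08, adjusted p = 0.949). Mrpl16, whose bacterial counterpart lies beside the site of peptide bond formation, had 66.6, 63.6 and 64.4 CPM in normoxic and 67.6, 67.8 and 56.0 in hypoxic males, and 60.7, 61.9 and 57.4 against 63.9, 57.6 and 56.4 in females (-0.02, SE 0.07, adjusted p = 0.84). Mrpl20, whose bacterial counterpart is needed early in assembly of the large subunit, had 41.1, 40.4 and 47.3 CPM in normoxic and 43.6, 44.1 and 41.3 in hypoxic males, and 37.0, 37.7 and 42.4 against 42.1, 44.7 and 37.9 in females (0.05, SE 0.07, adjusted p = 0.643). Mrps10, named after its value was seen, was close to these 3 (0.05, SE 0.07, adjusted p = 0.667). On library size alone Mrpl20 was higher by 0.25 (adjusted p = 0.018) and Mrps18a by 0.20 (adjusted p = 0.0498). In that fit the median of all tested genes was 0.20, and 29.8% of them were higher.

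**Figure D2:**
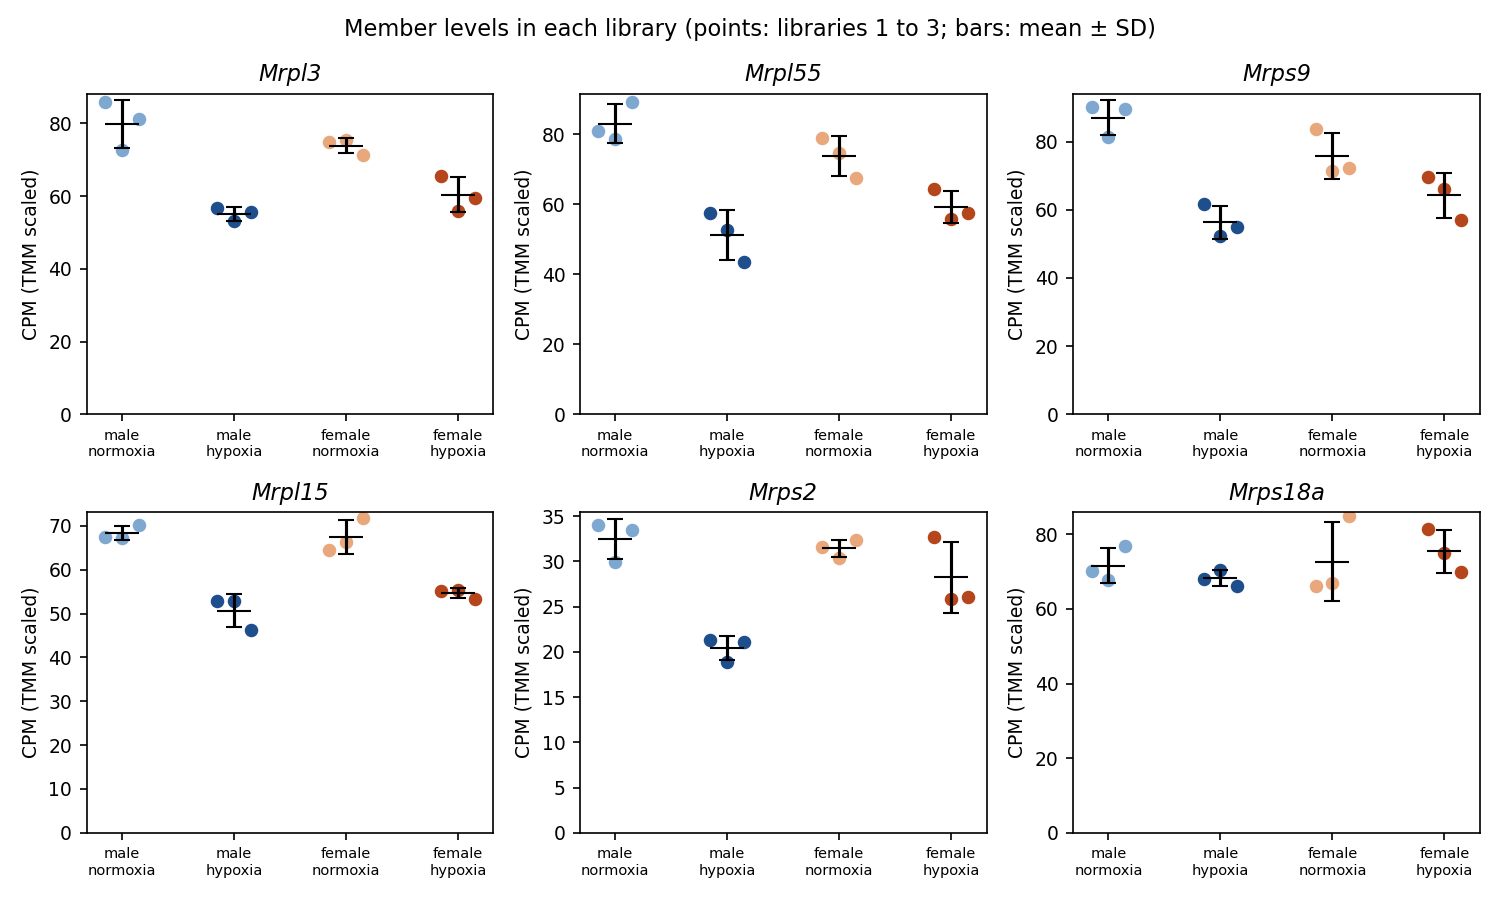
TMM-scaled CPM (y axis, from 0) of 6 members in the 4 groups, with a point for each of libraries 1 to 3 and bars for the mean ± SD. Mrpl3, Mrpl55, Mrps9 and Mrpl15 lie lower in hypoxia in both sexes without overlap, Mrps2 without overlap in males only, and the groups of Mrps18a overlap.

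In males 42 of 77 members fell and 0 rose, against 7.1% lower and 8.47% higher over all tested genes, and 59 members were lower at an unadjusted p under 0.05. At that unadjusted threshold 2119 of all 13960 tested genes were lower and 2429 higher. The median log2 fold change was -0.42 for the members and 0.01 for all genes. The male count was 26 without male normoxia library 1, 19 without male normoxia library 3, 21 without male hypoxia library 2 and 17 without male hypoxia library 3. In that order the member medians were -0.40, -0.38, -0.41 and -0.36, against 0.01, 0.01, 0.01 and 0.00 for all genes. For fits without a single library, in either sex, the share of all tested genes called is not given here. Lost calls therefore cannot be set against those of other genes. In females only Mrpl15 passed (-0.31, SE 0.08, adjusted p = 0.0489), against 5.99% of all tested genes called, 2.02% lower and 3.97% higher, and 24 members were lower and 0 higher at an unadjusted p under 0.05. At that unadjusted threshold 1593 of all 13960 tested genes were lower and 1850 higher. The female count was 6 without female hypoxia library 1 and 1 without male hypoxia library 3, Mrpl15 among them in both. It was 1, a member other than Mrpl15, without female normoxia library 3, and 0 without any other single library. The female median was -0.21, against -0.02 for all genes, and 70 of 77 members were below 0. In 60 of 77 members the hypoxic males were all below the normoxic males (19.8% over all tested genes), and in 25 of 77 this held in females (12.7%). In 23 members it held in both sexes (6.92% of all tested genes). In 0 members were the hypoxic libraries of a sex all higher, against 21.5% of all tested genes in males, 13.2% in females and 7.79% in both.

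The difference between the sexes did not reach the threshold for any member. In the interaction, the female effect minus the male effect, edgeR called 0 of 77 members, as did limma voom and DESeq2, against 0.00716% of all tested genes. At an unadjusted p under 0.05, 7 members had a positive interaction, that is a smaller fall in females, and 0 a negative one. Of all 13960 tested genes 394 had a positive and 554 a negative one at that threshold. The smallest p of a member was that of Mrps2, a conserved protein of the small subunit. Mrps2 had 34.0, 29.9 and 33.4 CPM in normoxic and 21.3, 18.9 and 21.1 in hypoxic males, and 31.6, 30.4 and 32.3 against 32.7, 25.9 and 26.1 in females. It fell by 0.67 in males (SE 0.11, adjusted p = 0.00393), and its female log2 fold change was -0.16 (SE 0.11, adjusted p = 0.386). The hypoxic females lay below the normoxic ones except for library 1, which was above all 3, and the interaction was 0.51 (SE 0.15, adjusted p = 0.641). Mrps27, a mitochondria-specific protein with RNA-binding repeats, had 48.9 ± 1.55 CPM in normoxic and 36.4 ± 2.06 in hypoxic males, and 40.1 ± 8.50 against 43.3 ± 3.05 in females (SD, n = 3; interaction 0.53, SE 0.19, adjusted p = 0.665). Its normoxic females had 43.0, 46.7 and 30.5 CPM, and the low value came from library 3, one of the libraries that stood apart. Averaged over the sexes, Mrps27 did not pass (-0.16, adjusted p = 0.241), and without that library it did (-0.24, adjusted p = 0.0125). Mrps28, which has a bacterial counterpart, had 44.2 ± 0.435 CPM in normoxic and 31.1 ± 5.39 in hypoxic males, and 35.2 ± 3.01 against 34.2 ± 3.84 in females (SD, n = 3). Its interaction was 0.47 (SE 0.18, adjusted p = 0.715). Averaged over the sexes Mrps28 fell by 0.28 (adjusted p = 0.0376), a call lost on leaving out any 1 library except male hypoxia 1, female normoxia 2 or female hypoxia 1 (adjusted p = 0.0639 to 0.0977). Over the family the median interaction was 0.19, and it was 0.08 without male hypoxia libraries 2 and 3.

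**Figure D3:**
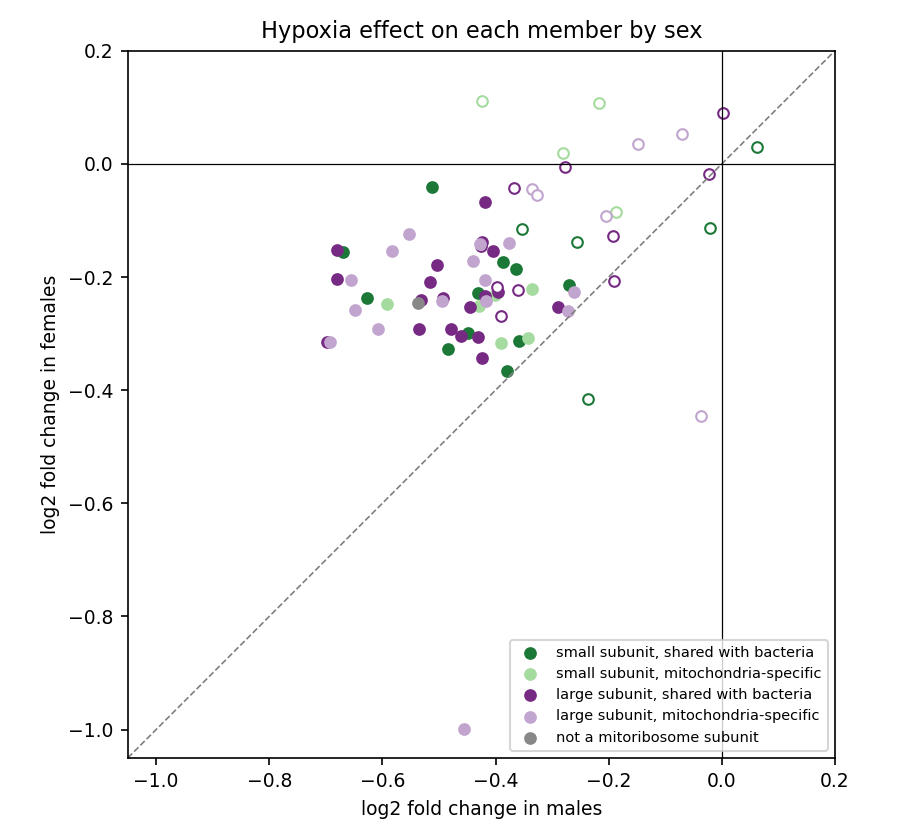
Hypoxia effect on each of the 77 members in males (x axis) and females (y axis), as log2 fold change, coloured by class, with filled points for members past the threshold in the averaged comparison. The dashed line marks equal effects. Of the 77 points 71 lie above it, with medians of -0.42 in males and -0.21 in females, and Mrpl57, at -0.46 and -1.0, lies far below it.

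At either oxygen level alone, no member passed the test between the sexes. In normoxia the test called 0 of 77 (0.0716% of all tested genes, 0.043% higher and 0.0287% lower in females), with 4 members lower and 0 higher in females at an unadjusted p under 0.05. These 4 were Mrps28, Mrps24, Mrpl53 and Mrpl10, with log2 differences from -0.33 to -0.23, named after their values were seen. At that unadjusted threshold 370 of all 13960 tested genes were lower and 648 higher in normoxic females. In hypoxia the test called 0 of 77 (0.15% of all tested genes, 0.0358% higher and 0.115% lower), with 6 members higher and 1 lower in females at an unadjusted p under 0.05. Mrps2 had the largest of the 6 differences (0.47, SE 0.11, adjusted p = 0.176), and DESeq2 called 1 member in this comparison. At an unadjusted p under 0.05, 709 of all 13960 tested genes were higher and 636 lower in hypoxic females. The 6 contrasts share libraries, so their values are not independent.

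Single libraries differed in how far the family was shifted. Against the mean of the normoxic libraries of the same sex, the median member shifted by -0.28, -0.42 and -0.51 on the log2 CPM scale in male hypoxia libraries 1, 2 and 3. In female hypoxia libraries 1, 2 and 3 the shift was -0.07, -0.22 and -0.27. The 6 normoxic libraries, each set against the others of its group, lay between -0.11 and 0.11. All 3 hypoxic males and female libraries 2 and 3 were thus below every normoxic library, and female hypoxia library 1 was within their range. The median of all tested genes stayed between -0.01 and 0.02 in these libraries.

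**Figure D4:**
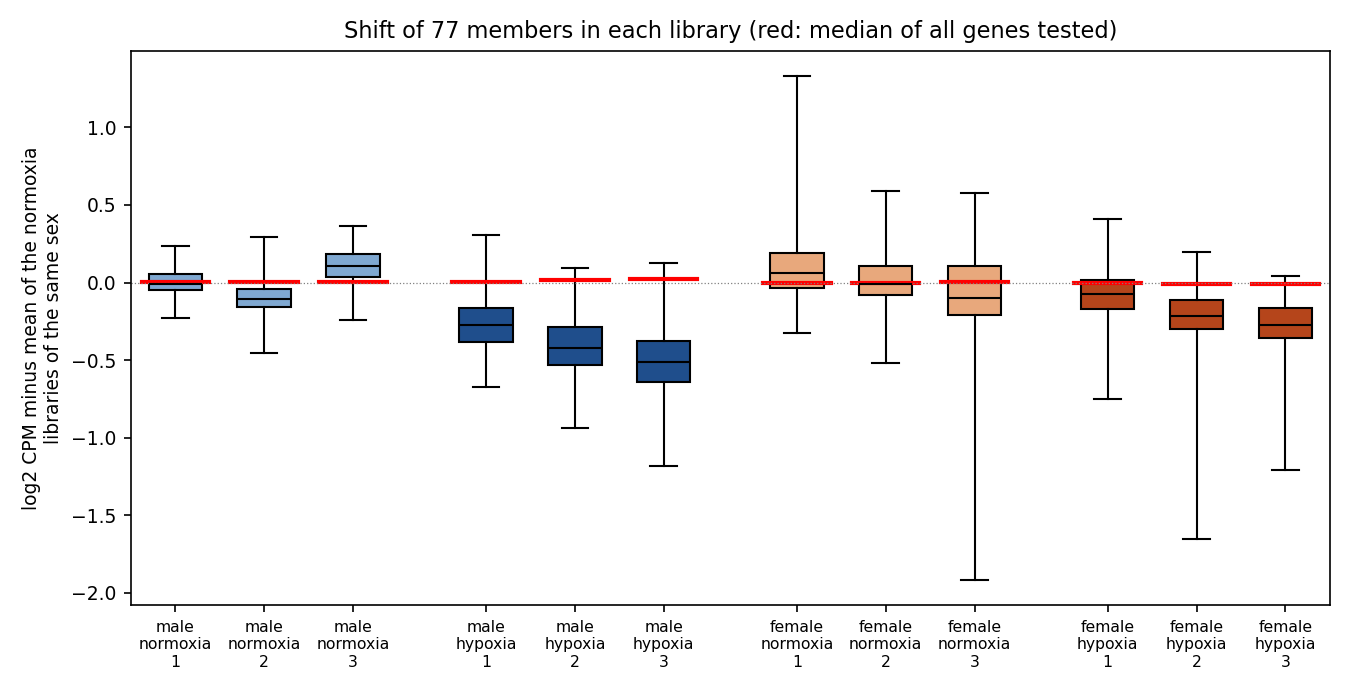
Log2 CPM of the 77 members in each library minus the mean of the normoxia libraries of the same sex (for a normoxia library, of the other ones). Boxes span the quartiles, whiskers the full range, and red lines mark the median of all tested genes. Hypoxic males are centred at -0.28, -0.42 and -0.51 and hypoxic females at -0.07, -0.22 and -0.27.

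Male hypoxia libraries 2 and 3, the lowest of all, also had the highest summed fat cell and fibroblast markers. Library 2 was the highest for atrial, erythroid and macrophage markers too, whereas for erythroid and macrophage markers library 3 lay below male hypoxia library 1. Endothelial markers were highest in female hypoxia libraries 3 and 2 (552 and 540 TPM), against 533 and 519 TPM in male hypoxia libraries 2 and 3. Summed fat cell markers were 1385 and 1096 TPM there, 846 TPM in male hypoxia library 1, 635 to 1008 TPM in hypoxic females and 387 to 779 TPM in normoxia. Of these 7 fat markers, Plin1 was at 0 in every library and Adipoq, Cfd, Cidec, Lep and Retn in at least 1. That left Fabp4 as the only fat marker above 0 throughout. Only 3 fat markers were tested, and 1 was higher in the averaged comparison. In females the log2 fold changes of these 3 ran from -2.91 to 1.63. Of the 7 atrial markers, Bmp10 and Sln were at 0 in at least 1 library. In the averaged comparison 5 of the 5 tested atrial markers were higher. So were 7 of 7 erythroid, 6 of 8 fibroblast, 7 of 8 endothelial and 4 of 8 macrophage markers, with 15% of all tested genes higher, whereas 2 of 10 ventricular muscle markers were lower (12.9% of all tested genes). Without male hypoxia libraries 2 and 3 the markers called higher were 2 of 5 atrial, 7 of 7 erythroid, 2 of 8 fibroblast, 3 of 8 endothelial and 3 of 8 macrophage (5.41% of all tested genes), and 0 of 10 ventricular muscle markers were lower (3.42%). Without female normoxia library 3 as well these counts were 2, 7, 3, 5 and 4 higher (9.13%) and 1 lower (6.83%). Summed erythroid markers ran from 2104 to 3068 TPM in normoxia and from 11112 to 25548 TPM in hypoxia. Summed fibroblast markers were 198 to 222 TPM in normoxic and 376 to 648 in hypoxic males, and 198 to 263 against 242 to 505 TPM in females. Summed endothelial markers were 189 to 255 against 365 to 533 TPM in males and 258 to 356 against 354 to 552 TPM in females. Summed macrophage markers were 101 to 144 against 255 to 324 TPM in males and 118 to 157 against 136 to 243 TPM in females. The part of these cells in the fall of the ribosomal protein genes was not tested.

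Without male hypoxia libraries 2 and 3 the averaged comparison called 14 members lower and 0 higher, with 3.42% of all tested genes lower, and the median was -0.24. Without female normoxia library 3 as well it called 26 lower and 0 higher (6.83% of all tested genes lower, median -0.26). The male comparison called 0 members in both of these fits, with 0.109% and 0.322% of all tested genes lower and a median of -0.28 in each. With 1 hypoxic male library left, its spread was taken from that of the remaining libraries. Mrpl3, Mrpl15, Mrpl37, Mrpl55, Mrps24, Mrps15, Mrpl30, Mrps9 and Mrps2 kept an adjusted p under 0.05 in the averaged comparison in both fits. Mrpl42 (adjusted p = 0.0616) and Mrps21 (adjusted p = 0.0502) missed it in the first and kept it in the second, and Mrps28 missed it in both (adjusted p = 0.348 and 0.402). On library size alone Mrpl15 (adjusted p = 0.0763), Mrpl37 (adjusted p = 0.0604) and Mrps21 (adjusted p = 0.158) missed it.

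Other genes of mitochondrial gene expression showed mostly falls as well. In the averaged comparison used for these lists, 12.9% of all tested genes were lower and 15% higher. The 5 ribosomal subunits whose symbols do not follow the pattern fell, 5 of 5, with a median of -0.34. Ptcd3, a subunit with RNA-binding repeats, fell by 0.65 (SE 0.13, adjusted p = 0.00437), Chchd1 by 0.34 (SE 0.06, adjusted p = 0.00227) and Aurkaip1 by 0.36 (SE 0.08, adjusted p = 0.00715). Of 28 factors that assemble the ribosome 16 fell and 0 rose (median -0.35). Mtg2, a GTPase of large subunit assembly, fell by 0.67 (SE 0.09, adjusted p = 0.000845), Fastkd2, which binds the large rRNA, by 0.52 (SE 0.08, adjusted p = 0.000993) and C1qbp, an RNA-binding protein of the mitochondrial matrix, by 0.38 (SE 0.06, adjusted p = 0.00121).

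Of 17 translation factors 9 fell and 0 rose (median -0.31). Tufm, the elongation factor that delivers aminoacyl-tRNA, fell by 0.52 (SE 0.08, adjusted p = 0.00138), Metap1d, which removes the first methionine of new proteins, by 0.53 (SE 0.09, adjusted p = 0.00214) and Mtif2, an initiation factor, by 0.43 (SE 0.10, adjusted p = 0.00959). Of 20 mitochondrial aminoacyl-tRNA enzymes 11 fell and 0 rose (median -0.36), including Cars2 for cysteine (-0.63), Vars2 for valine (-0.53) and Tars2 for threonine (-0.35), with adjusted p of 0.00111, 0.00142 and 0.0024. Of the 13 protein-coding genes of mitochondrial DNA, whose mRNAs this ribosome translates, 9 fell and 0 rose (median -0.52). The ATP synthase subunit mt-Atp6 fell by 0.75 (SE 0.10, adjusted p = 0.000802), mt-Nd3 by 0.63 (SE 0.11, adjusted p = 0.00278) and mt-Nd1 by 0.62 (SE 0.12, adjusted p = 0.00409), the last pair being subunits of complex I.

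Of 14 genes for transcription of the mitochondrial genome or its nuclear control 5 fell and 2 rose (median -0.20). Over all tested genes 12.9% were lower and 15% higher, so the 2 rises were near the share of all genes. Mterf2, a mitochondrial termination factor family member, fell by 0.72 (SE 0.12, adjusted p = 0.00224), the elongation factor gene Tefm by 0.47 (SE 0.10, adjusted p = 0.00568) and the promoter factor gene Tfb2m by 0.40 (SE 0.10, adjusted p = 0.0127). The 2 that rose, named after their values were seen, were Nrf1 (0.43, SE 0.13, adjusted p = 0.0323) and Yy1 (0.34, SE 0.10, adjusted p = 0.0237), whose proteins bind motifs searched above. Gabpa, which encodes the ETS protein, did not pass (-0.06, SE 0.08, adjusted p = 0.557). A link between these genes and the motif matches was not tested. Without male hypoxia libraries 2 and 3 the medians of these lists, in the order given, were -0.31, -0.31, -0.27, -0.34, -0.44 and -0.11. Without female normoxia library 3 as well they were -0.27, -0.34, -0.29, -0.35, -0.44 and -0.10. The median of all tested genes was -0.02 in both of these fits. On library size alone, 4.58% of all tested genes were lower and 29.8% higher. In that fit the lists had 1, 6, 2, 5, 7 and 2 falls in the same order. Rises there were 1 among assembly factors, 1 among tRNA enzymes and 3 in the last list.

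The ribosomal proteins of the cytosol differed from the mitochondrial ones in their counts. Of 80 tested cytosolic ribosomal protein genes 6 were lower and 1 higher in the averaged comparison, with a median of -0.11. Over all tested genes 12.9% were lower and 15% higher, so cytosolic genes were called less often than that in both directions. Their medians were -0.05 in males and -0.15 in females, where those of the mitochondrial family were -0.42 and -0.21. Near-identical copies exist for many cytosolic ribosomal protein genes, so their estimated counts are less certain, and the difference between the families was not tested.

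**Figure D5:**
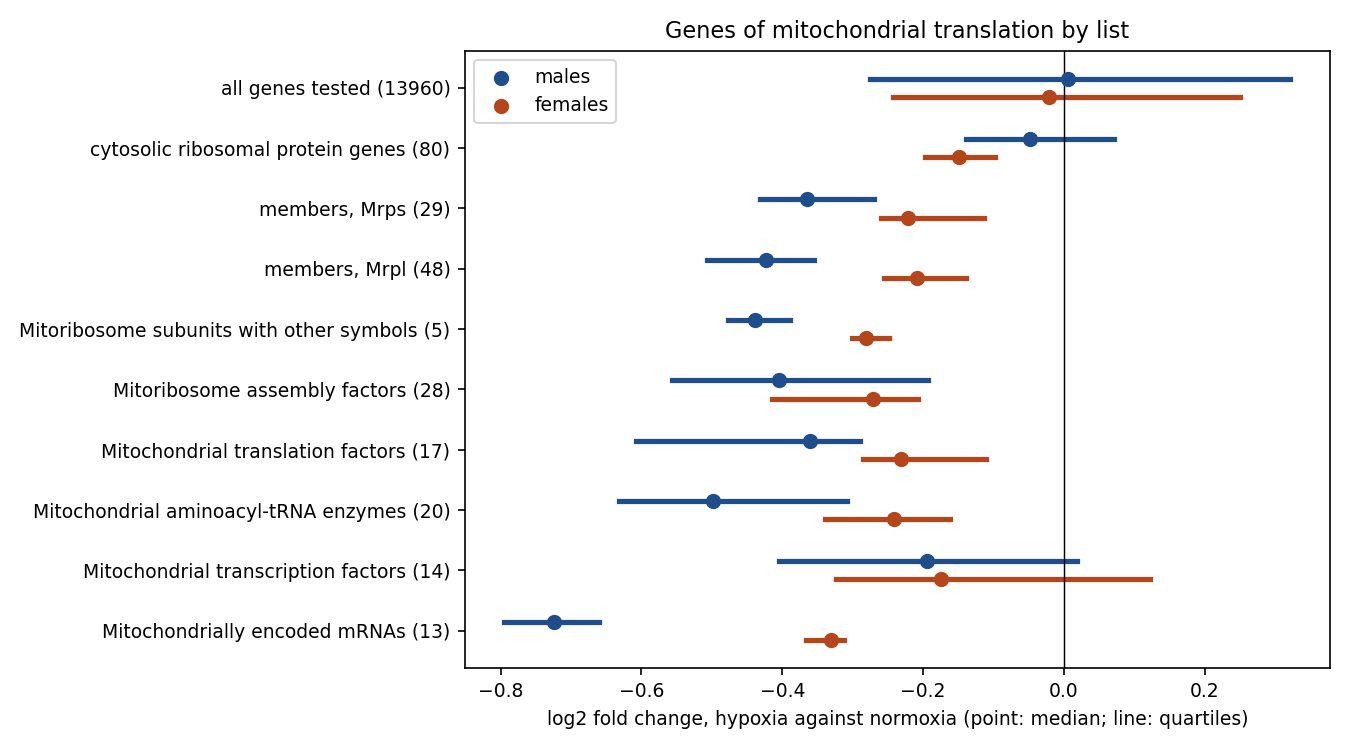
Log2 fold change in hypoxia (x axis) for lists of genes in males and females, with points for medians and lines for quartiles over the tested genes of each list, whose number is in brackets. The members sit at -0.36 (Mrps) and -0.42 (Mrpl) in males and -0.22 and -0.21 in females, the mRNAs of mitochondrial DNA at -0.72 and -0.33, and all tested genes at 0.01 and -0.02.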

How the data were processed

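Gene expression was measured by strand-specific mRNA sequencing of ventricular RNA in 12 libraries. The labels' protocols describe a directional mRNA kit. The submitters' processing notes name FastQC, Salmon and GRCm39. Not given in the sources used here are their versions, the annotation release and the strand setting. As deposited, the values are, per the file headers, estimated counts not scaled from abundance, TPM and average transcript lengths. The deposited TPM values sum to 889905 to 926060 per library. Every per-sample column was matched to a sample (0 left over). Symbols came from GENCODE vM21 (GRCm38), used for names and transcript lengths, and covered 99.3% of genes. Promoters are RefSeq's on GRCm38.p6, another build than that of the reads.

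Estimated counts were rounded. filterByExpr in edgeR 4.0.16 (R 4.3.3) kept 13960 genes. TMM factors and a quasi-likelihood model of the 4 group means on all 12 libraries (8 residual degrees of freedom) gave two-sided tests of 6 contrasts. Benjamini-Hochberg adjustment ran over all tested genes, with a threshold of 0.05. In simulated data with 13704 genes and 50 genes changed at each fold size, the averaged contrast recovered 4% of 1.25-fold, 38% of 1.5-fold and 72% of 2-fold changes. It had 4 false among 102 calls. The male contrast recovered 0%, 8% and 50%, with 4 false among 69 calls. In the data the averaged contrast called 27.9% of genes, and the adjusted threshold depends on how many genes change. The simulated shares therefore do not describe recovery in the data. CPM are means ± SD of 3 libraries. Ratios of group means used a pseudocount of 0.01. Alternatives were DESeq2 1.42.0, limma 3.58.1 voom, other factors, filters and offsets, the replicate number as a block, and libraries left out. Library size alone, and leaving out female normoxia library 3 with male hypoxia libraries 2 and 3, were added after the data were seen.

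Members with their own values in the text are the 8 past the threshold with the smallest p in the averaged contrast, up to 5 in each other contrast, the 3 highest and 3 lowest by TPM, the 3 smallest interaction p and the 3 nearest to no change above the median TPM. Up to 3 genes were named from each other list by smallest p. The members and lists were chosen with earlier results of these data known.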

Additional observations from a re-analysis of the deposited data

How the results depend on the processing

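Under RLE or upper quartile factors, DESeq2, limma voom, no filter, 1 CPM in every sample and with mitochondrially encoded and haemoglobin genes left out, the averaged contrast called 48 to 53 members lower, with 51 or more in all but the filter settings. With 1 CPM in every sample 75 members were tested. The share of all tested genes called is not given here for these settings, the length offset, the replicate block or only the compared libraries. That holds for every contrast, so these counts cannot be set against other genes. A transcript length offset gave 38, of which 37 were shared with the 52. Without male hypoxia libraries 2 and 3 it called 14, without female normoxia library 3 as well 26, and on library size alone 13, of which 10 were lower and 3 higher (median -0.11). Leaving out single libraries gave 37 to 55 (without female hypoxia library 3 and male hypoxia library 1), with medians from -0.34 to -0.27. The share of all tested genes called in those fits is not given here. In males the 42 calls ranged from 17, without male hypoxia library 3, to 51, and were 26 and 19 without male normoxia library 1 or 3 and 21 without male hypoxia library 2. They were 0 without male hypoxia libraries 2 and 3, with or without female normoxia library 3 (median -0.28 in both), and 11 on library size alone, of which 10 were lower and 1 higher (median -0.16, with 2.55% of all tested genes lower and 23.2% higher). In females the 1 call became 9 with DESeq2, 4 with upper quartile factors, 2 with 1 CPM in every sample, and 0 with RLE factors, voom, the length offset, no filter, only the compared libraries, library size alone (median -0.061) and both fits without male hypoxia libraries 2 and 3, and it ranged from 0 to 6 (without female hypoxia library 1) when single libraries were left out.

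The median interaction was 0.082 without male hypoxia libraries 2 and 3, 0.085 without female normoxia library 3 as well, 0.091 on library size alone and 0.17 to 0.28 without single libraries. The median sex difference in hypoxia was -0.0041 and -0.0042 in the fits without male hypoxia libraries 2 and 3, and DESeq2 called 1 member there. With mitochondrially encoded and haemoglobin genes removed, summed abundance was 9432 and 8589 TPM in normoxic and hypoxic males and 9065 and 8595 TPM in females, and the share of counts was 0.603, 0.492, 0.552 and 0.520%.

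Directions near 0 turned. Mrpl16 became 0.0222 without male hypoxia libraries 2 and 3, -0.044 to 0.022 without single libraries (above 0 without male hypoxia library 3), 0.18 on library size alone and 0.0059 without female normoxia library 3 as well. Mrps18a became 0.0010 with no filter, 0.0058 with 1 CPM in every sample, -0.037 to 0.054 without single libraries (above 0 without library 3 of any group), 0.20 on library size alone and 0.053 in the fit without 3 libraries. Mrps27 became 0.045 on library size alone. In that fit the median of all tested genes was 0.20. The cause was not tested.

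Libraries of a group share only a number with those of the others: 1 of 18 same-number pairs correlated over 0.1 (range -0.05 to 0.19), although 9 of 12 libraries correlated best with their own number. With the replicate number as a block the averaged contrast called 52 members, of which 50 were shared, the male contrast 44 and the female contrast 0. Counts below 100 limit Mrpl52, Mrpl57 and Mrps16.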
